A study of Mus musculus with 30 samples.

Results

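Mammary epithelium is built from 2 layers, and the genes described here mark them. They are 9 genes, taken from the counts table by symbol, of 21841 in the table and 13663 with enough reads to be tested: the hormone receptors Esr1, Pgr and Prlr, the luminal regulators Gata3, Foxa1 and Elf5, the epithelial surface proteins Epcam and Cd24a, and the basal regulator Trp63. All 9 members passed the filter on low counts. They were described over 30 bulk RNA sequencing libraries of mammary tumours (tissue label Breast) from the line FVB/N-Tg(MMTV-PyVT)634Mul/J, labelled WT by genotype and known as MMTV-PyMT, in which the mouse mammary tumour virus promoter drives polyoma middle T antigen in mammary epithelium and tumours arise spontaneously. The 6 groups of 5 libraries were given vehicle or 1 of the cytotoxic chemotherapies 5-FU (5-fluorouracil) and gemcitabine, and 3 of them were also given KCL-HO-1i, which blocks the heme-degrading enzyme heme oxygenase-1, alone (KCL-HO-1i) or with a chemotherapy (KCL-HO-1i/5-FU, then KCL-HO-1i/gemcitabine). Per the labels all mice carried the transgene and were treated for 72 hours by intraperitoneal injection, receiving 25 µmol/kg of KCL-HO-1i daily, 40 mg/kg of 5-FU on a cycle of 4 days or 64 mg/kg of gemcitabine on a cycle of 7 days. The study's own text names a briefer treatment and less gemcitabine. Ages were not given. Per the study's text each group held 5 mice. The labels do not say so, and give each library its own code, with 13 prefixes of which 7 occur in more than 1 group and whose meaning is not given there, so p-values measure the spread between these libraries.

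In the luminal layer, which lines the ducts and alveoli, hormone-sensing cells carry the oestrogen receptor α (Esr1) and the progesterone receptor (Pgr), and signal to neighbouring cells. The pioneer factor Foxa1 opens chromatin for the oestrogen receptor, and the zinc finger factor Gata3 is needed to make and keep luminal cells. The ETS factor Elf5 directs alveolar, milk-producing cells downstream of the prolactin receptor (Prlr). In the basal layer, the p53 family member Trp63 maintains the basal and myoepithelial state. The adhesion protein Epcam and the glycosylated surface protein Cd24a are commonly used to sort luminal from basal cells by flow cytometry. MMTV-PyMT tumours are known as a largely luminal model that loses hormone receptors as tumours progress.

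Libraries held between 10067698 and 13622395 reads. Levels are given as CPM, reads (counts) per 1e6 of the normalised library size. Tissue scores, the mean log2 CPM of a marker list without members, were computed for 8 cell types. The luminal score ran from 6.91 to 8.23, and all 12 of its genes passed the filter on low counts. The lymphocyte score rested on only 5 of its 10 listed genes and the epidermis score on 4 of 10. The other lists ran over wider ranges, from -0.37 to 8.96 for adipocytes and -2.06 to 10.01 for skeletal muscle. KCL-HO-1i/gemcitabine replicate 2 had the highest adipocyte, skeletal muscle and fibroblast scores and the lowest luminal score, and KCL-HO-1i replicate 4 had the next highest adipocyte and muscle scores (8.41 and 8.38). These libraries were left out together in an alternative chosen after seeing the data. In bulk tissue, fewer cells of a type and less RNA per cell cannot be told apart.

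In the GENCODE M21 annotation of GRCm38, the build of the counts, the genes lie on 7 chromosomes. Esr1 (chr10:4611593-5005614, plus strand) and Cd24a (chr10:43578284-43584265, plus) share chromosome 10, and Gata3 (chr2:9857078-9890034, minus) and Elf5 (chr2:103411688-103450989, plus) share chromosome 2. Pgr lies at chr9:8899833-8968611 (plus), Prlr at chr15:10177238-10349180 (plus), Foxa1 at chr12:57540628-57546916 (minus), Epcam at chr17:87635979-87651129 (plus) and Trp63 at chr16:25683763-25892102 (plus). The table gives 1 estimated count per gene and library. Prlr, Gata3 and Trp63 overlap other annotated genes, 1, 3 and 2 respectively, of which Gm21973, 9230102O04Rik and the pseudogene Gm27005 lie on the same strand, and reads of these could be split between them.

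RefSeq (GRCm38.p6) gave start sites for 7 of the 9 members. The 250 bases upstream of the start are shown for 2 pairs of members: Gata3 and Epcam, whose relation over libraries passed its test, and Pgr and Foxa1, whose relation passed with Pearson's r (adjusted permutation p = 0.00342) and within groups (adjusted permutation p = 0.00036) but not with Spearman's rho (adjusted permutation p = 0.0617). Capitals mark matches on either strand to a GATA motif (the word GATA after an A or T and before an A or G), an ETS motif (CGGAAG, or the same with A for its first base) or a forkhead motif (TGTTTAC), the letters that factors of the families of Gata3, Elf5 and Foxa1 recognise. Sequences read 5′ to 3′ in the direction of the gene.
Gata3 (chr2:9878601-9878850, minus strand): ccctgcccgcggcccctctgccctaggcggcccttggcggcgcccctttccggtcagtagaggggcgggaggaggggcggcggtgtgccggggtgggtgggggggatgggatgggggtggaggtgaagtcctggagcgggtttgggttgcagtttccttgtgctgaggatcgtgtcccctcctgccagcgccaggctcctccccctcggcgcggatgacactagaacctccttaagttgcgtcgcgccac
Epcam (chr17:87635729-87635978, plus strand): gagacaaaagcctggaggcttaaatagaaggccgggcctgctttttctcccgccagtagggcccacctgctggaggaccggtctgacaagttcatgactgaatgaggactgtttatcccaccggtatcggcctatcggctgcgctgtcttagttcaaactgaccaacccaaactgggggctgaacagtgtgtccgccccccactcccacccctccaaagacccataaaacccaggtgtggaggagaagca
Pgr (chr9:8899583-8899832, plus strand): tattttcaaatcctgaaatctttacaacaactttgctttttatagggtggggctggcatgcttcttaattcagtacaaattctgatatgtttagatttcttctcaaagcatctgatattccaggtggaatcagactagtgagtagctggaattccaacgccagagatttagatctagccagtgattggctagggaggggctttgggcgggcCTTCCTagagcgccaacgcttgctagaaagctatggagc
Foxa1 (chr12:57546112-57546361, minus strand): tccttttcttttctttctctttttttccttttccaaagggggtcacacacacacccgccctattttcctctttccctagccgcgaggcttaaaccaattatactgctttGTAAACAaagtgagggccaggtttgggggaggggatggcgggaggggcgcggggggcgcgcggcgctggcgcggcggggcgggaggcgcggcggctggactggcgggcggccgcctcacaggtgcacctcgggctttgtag
The Gata3 and Epcam windows held none of these letters. The Pgr window held 1 ETS match starting 39 bases before the start site, and the Foxa1 window held 1 forkhead match 141 bases before it. Of 32851 mouse windows of this length, 26.5% held a GATA, 39.2% an ETS and 3.17% a forkhead match. A full oestrogen response element (GGTCA, then any 3 bases, then TGACC) was found in none of the members' windows and in 0.0639% of all. A match is a description of letters, not of binding.

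The members spanned a wide range of levels in these tumours, with the surface proteins at the top and Pgr and Foxa1 close to the detection limit. Per kilobase of exon, the mean level over 30 libraries was 565 CPM/kb ± 114 (SD) for Epcam, 323 ± 66.0 for Cd24a, 166 ± 43.8 for Elf5 and 71.8 ± 14.4 for Gata3. A step of 8.84-fold then separated Gata3 from Prlr, at 8.13 CPM/kb ± 1.84. Below it came the basal regulator Trp63 at 3.57 ± 1.87, Esr1 at 1.49 ± 0.730, Foxa1 at 0.658 ± 0.640 and Pgr at 0.232 ± 0.168. The luminal alveolar regulator thus stood far above the receptors of hormone-sensing cells on the per-length scale.

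**Figure D1:**
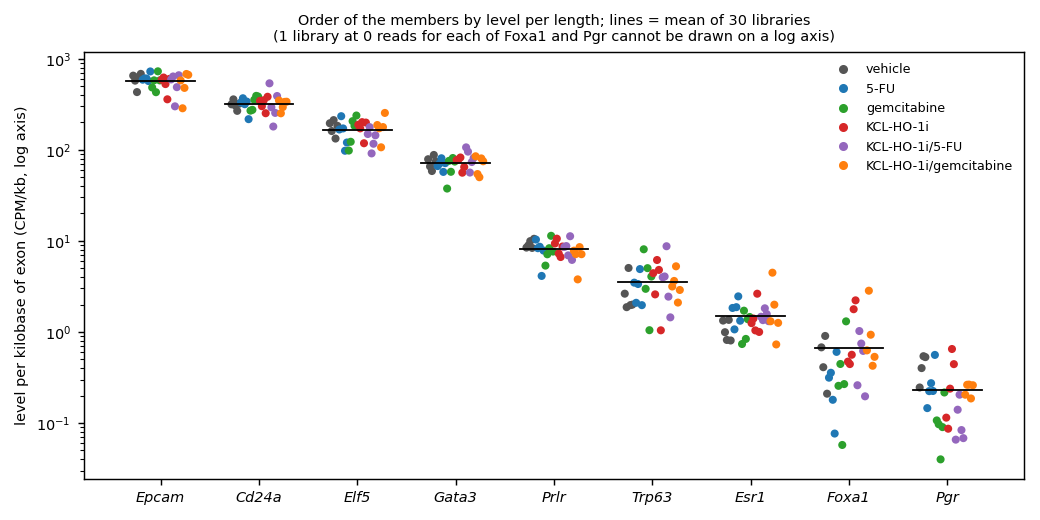
Level of each member per kilobase of exon (CPM/kb, log axis) in 30 libraries, coloured by treatment group; lines show the mean. Epcam is highest at a mean of 565 CPM/kb and Pgr lowest at 0.232 CPM/kb, and the only neighbours whose ranges do not overlap are Gata3 and Prlr.

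The order was read within libraries. Epcam exceeded Cd24a, Cd24a exceeded Elf5, Elf5 exceeded Gata3 and Gata3 exceeded Prlr in 30 of 30 libraries. Lower down the order was looser, with Prlr above Trp63 in 26 of 30, Trp63 above Esr1 in 28, Esr1 above Foxa1 in 29 and Foxa1 above Pgr in 26. The ranges over libraries overlapped for every neighbouring pair except Gata3 and Prlr. With the longest coding transcript as the length, the order was the same, and Epcam exceeded Cd24a in 29 of 30 libraries. Pgr had a median of 17.5 reads and Foxa1 of 19, and each was at 0 reads in vehicle replicate 3, which also had the lowest fibroblast, macrophage and lymphocyte scores (2.56, 3.12 and -1.93).

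Libraries of a group differed from each other more than the groups did. The groups accounted for 18.7% of the log2 spread of Esr1, 23.6% of Pgr, 16.0% of Prlr, 13.2% of Gata3, 26.7% of Foxa1, 12.8% of Elf5, 8.66% of Epcam, 1.52% of Cd24a and 4.72% of Trp63, against a median of 20.5% over all tested genes. The SD of log2 CPM over the 30 libraries was smallest for Cd24a (0.30) and Gata3 (0.31) and largest for Foxa1 (1.25), Pgr (1.06) and Trp63 (0.76), with a median of 0.34 over all tested genes. No pair of groups was free of overlap for any member (0 of 15 group pairs each). How often this holds over all tested genes was not counted, so it is not read as a trait of the members. When groups were ordered by mean level, neighbours lay within 1 pooled SD of each other for 8 members, and for Pgr the 1 exception was KCL-HO-1i/gemcitabine against KCL-HO-1i/5-FU.

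**Figure D2:**
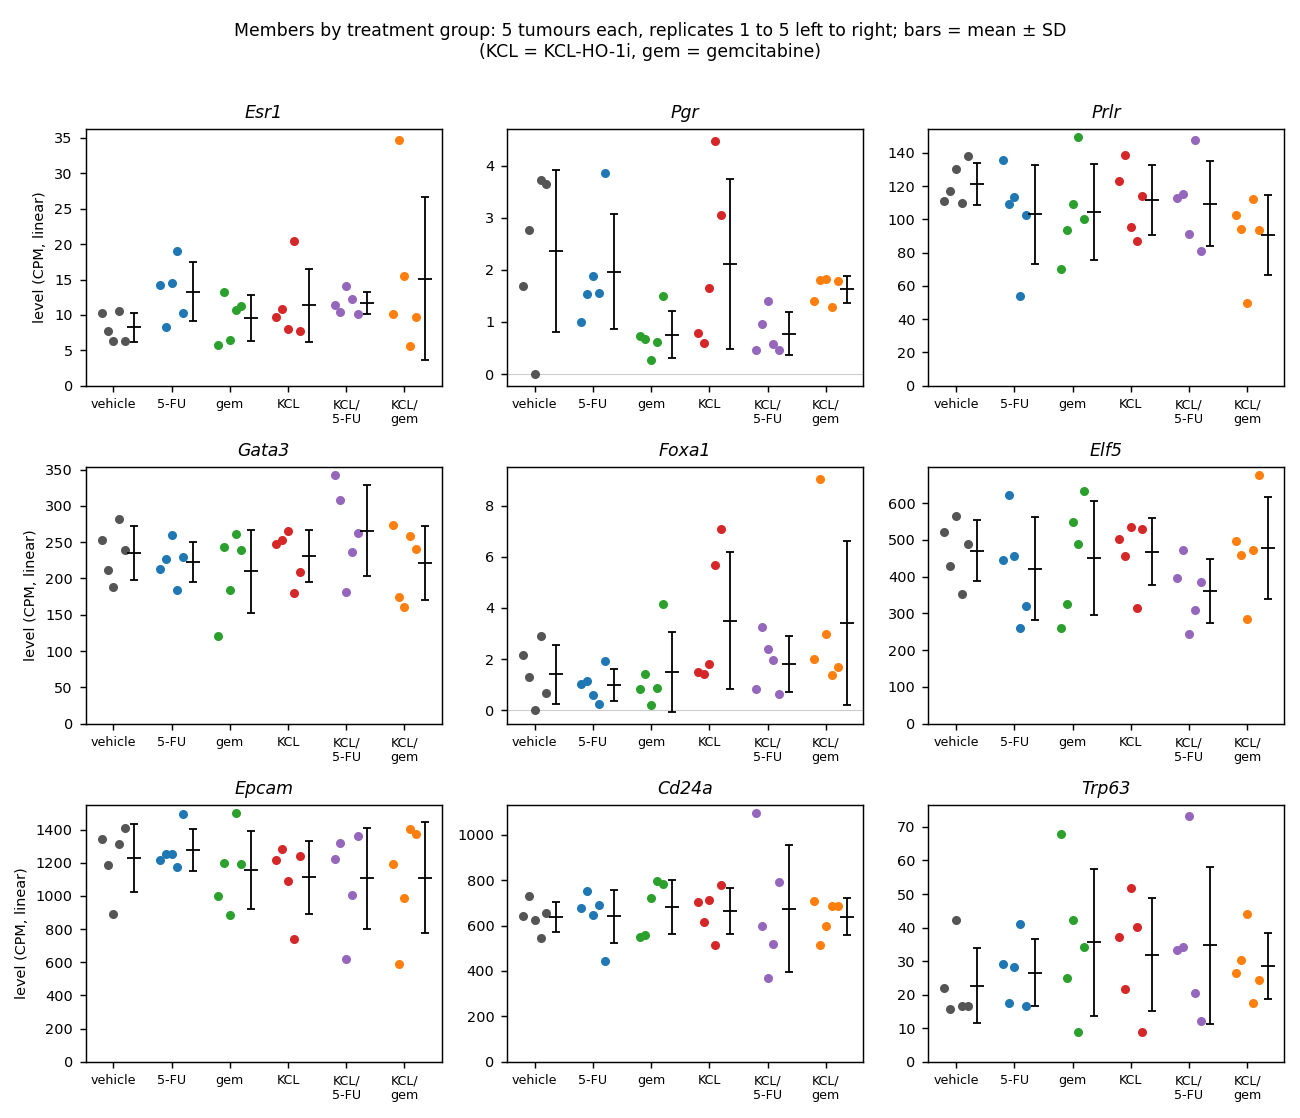
CPM (linear axis) of each member by treatment group, 5 libraries each in replicate order, with the mean ± SD beside them. The groups overlap in every panel, Pgr is lowest in gemcitabine and KCL-HO-1i/5-FU, and single libraries stand high for Esr1 and Foxa1, with KCL-HO-1i/gemcitabine replicate 2 at 34.7 and 9.05 CPM.

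Group differences were tested in 13 comparisons with edgeR's quasi-likelihood test over all 13663 tested genes. No member passed a Benjamini-Hochberg adjusted p under 0.05 in any of them (0 of 9 each), a threshold that 0.0% of tested genes passed in 11 comparisons, 0.0586% for the average of the 3 comparisons with and without KCL-HO-1i (alone, on 5-FU, on gemcitabine) and 0.651% for any difference among the 6 groups. DESeq2 and limma-voom also called 0 members in each comparison. At an unadjusted p under 0.05, 1 of 9 members passed in gemcitabine against vehicle, where 3.83% of tested genes did. In KCL-HO-1i/5-FU against vehicle 1 member passed (17.6% of genes), in KCL-HO-1i/gemcitabine against vehicle 1 (19.8%), in KCL-HO-1i/5-FU compared with KCL-HO-1i 1 (16.9%) and for the KCL-HO-1i average 1 (23.0%). No member passed in 5-FU against vehicle (3.89% of genes), KCL-HO-1i against vehicle (9.43%), KCL-HO-1i/5-FU against 5-FU (11.4%), KCL-HO-1i/gemcitabine against gemcitabine (13.5%) or against KCL-HO-1i (2.66%), the interactions of KCL-HO-1i with 5-FU (8.53%) and gemcitabine (1.34%), or the test of any difference (18.7%). These shares of members lie near or below the shares of all genes, apart from gemcitabine, where 1 gene makes the count. The comparisons against vehicle share the same 5 vehicle libraries, and the average reuses all of the others.

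**Figure D3:**
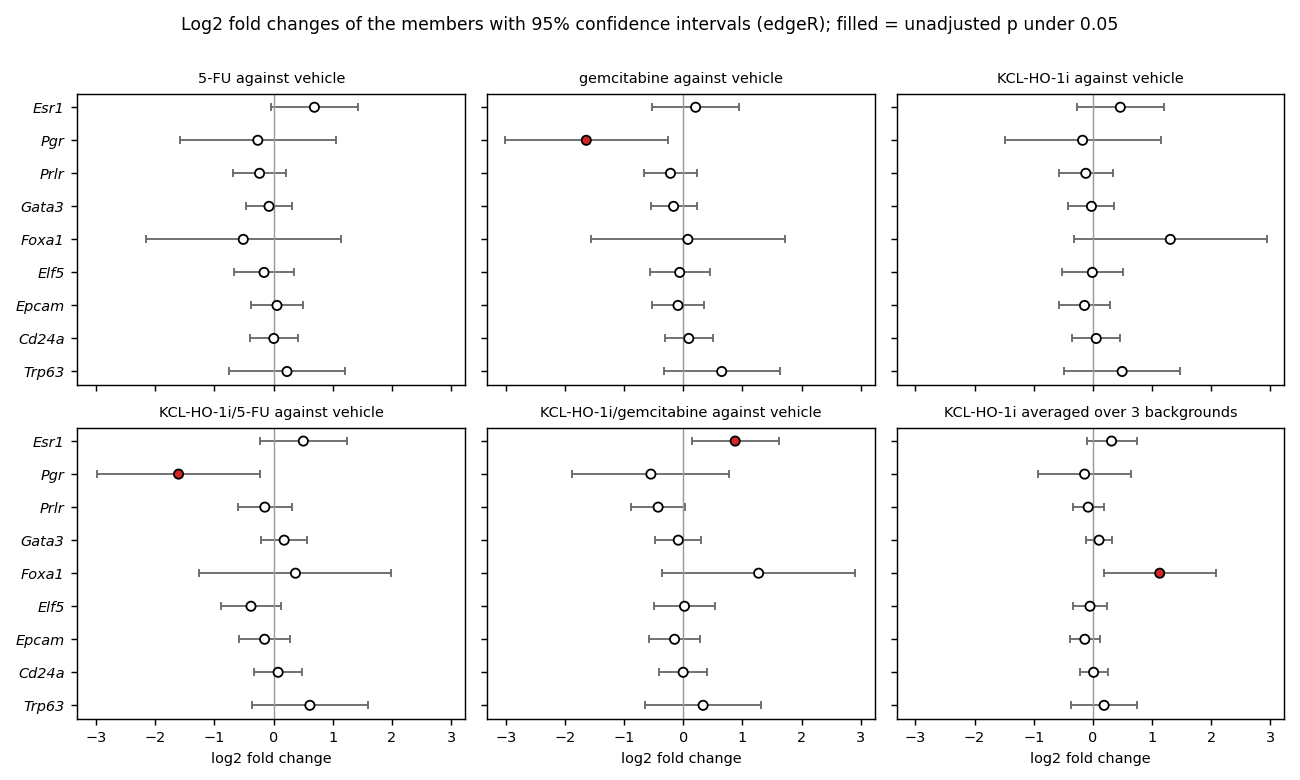
Log2 fold change of each member with its 95% confidence interval in 6 comparisons; filled points have an unadjusted p under 0.05. Intervals are narrow for Gata3, Epcam and Cd24a and wide for Pgr and Foxa1, and only Pgr (in 2 panels), Esr1 and Foxa1 have filled points.

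Pgr encodes the progesterone receptor, which drives side branching of the ducts. In vehicle it was at 1.69, 2.76, 0, 3.73 and 3.65 CPM in replicates 1 to 5. In gemcitabine it was at 0.735, 0.668, 0.275, 0.621 and 1.49 CPM, and in KCL-HO-1i/5-FU at 0.452, 0.964, 1.41, 0.576 and 0.470 CPM. Of the vehicle libraries 4 of 5 lay above every gemcitabine and KCL-HO-1i/5-FU library, while replicate 3, with 0 reads, lay below all of them. In 5-FU it was at 1.00, 1.54, 1.89, 1.55 and 3.85 CPM, in KCL-HO-1i at 0.789, 0.596, 1.64, 4.48 and 3.05, and in KCL-HO-1i/gemcitabine at 1.41, 1.81, 1.82, 1.28 and 1.79. The last group was the tightest, with an SD of 0.257 CPM against 1.56 in vehicle.

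The log2 fold change of Pgr against vehicle was -1.64 ± 0.67 (SE, n = 5 per group) for gemcitabine, with a 95% interval of -3.02 to -0.26 and an adjusted p of 0.941 in edgeR (0.508 to 1.0 over the alternatives). For KCL-HO-1i/5-FU it was -1.61 ± 0.67, with a 95% interval of -2.98 to -0.23 and an adjusted p of 0.21 in edgeR (0.125 to 1.0 over the alternatives). The intervals covered 0.123 to 0.835 of the vehicle level for gemcitabine and 0.127 to 0.851 for KCL-HO-1i/5-FU. Without vehicle replicate 3 the values were -1.97 ± 0.53 and -1.94 ± 0.53 (SE). Their unadjusted p-values in edgeR were 0.000937 and 0.00107, against 0.0217 and 0.0236 with all libraries. The adjusted p-values, which also depend on the other tested genes, were 0.967 and 0.314 in edgeR. With the prefix of the library codes as a term they were -1.83 ± 2.46 and -1.85 ± 2.08 (SE). Gemcitabine replicates 1 to 4 share 1 prefix, which 5-FU replicates 1 to 3 also have. KCL-HO-1i/5-FU had a log2 fold change of -1.43 ± 0.67 when compared with KCL-HO-1i (edgeR adjusted p = 0.276, 0.15 to 0.667 over the alternatives), without KCL-HO-1i replicate 4 it was -0.96 (edgeR adjusted p = 0.585), and without both libraries of the highest adipocyte score -0.95 (edgeR adjusted p = 0.578). Against 5-FU it was -1.34 ± 0.67 (edgeR adjusted p = 0.445). The interaction of KCL-HO-1i and gemcitabine for Pgr was 1.27 ± 0.93 (edgeR adjusted p = 1.0), so a difference in the gemcitabine comparison with and without KCL-HO-1i was not shown. The 5 vehicle libraries held 149 Pgr reads in all and the 5 gemcitabine libraries 43.

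Esr1 encodes the oestrogen receptor α. It was at 10.3, 7.70, 6.33, 10.5 and 6.25 CPM in vehicle, 14.2, 8.28, 14.5, 19.1 and 10.3 CPM in 5-FU, and 5.72, 13.3, 6.50, 10.7 and 11.3 CPM in gemcitabine. In KCL-HO-1i it was at 9.69, 10.9, 8.06, 20.4 and 7.75 CPM, in KCL-HO-1i/5-FU at 11.4, 10.5, 14.1, 12.2 and 10.2, and in KCL-HO-1i/gemcitabine at 10.2, 34.7, 15.5, 5.65 and 9.75. Vehicle had the lowest group mean (8.23 CPM ± 2.09) and KCL-HO-1i/gemcitabine the highest (15.1 ± 11.5), with 1 library of the latter far above the rest and another below every vehicle library.

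KCL-HO-1i/gemcitabine against vehicle gave a log2 fold change of 0.88 ± 0.36 for Esr1 (SE, n = 5 per group; edgeR adjusted p = 0.166, 0.0769 to 1.0 over the alternatives). Without KCL-HO-1i/gemcitabine replicate 2 it was 0.30 (edgeR adjusted p = 0.694), without both libraries of the highest adipocyte score 0.31 (edgeR adjusted p = 0.626), and with the luminal score as a covariate 0.24 (edgeR adjusted p = 0.805). That replicate had the highest adipocyte, muscle and fibroblast scores. With the prefix of the library codes as a term the value was -0.08. For 5-FU against vehicle the log2 fold change of Esr1 was 0.69 ± 0.36 (edgeR adjusted p = 0.999), and with both libraries of the highest adipocyte score left out, neither of which is in these groups, it was 0.70 ± 0.26 (edgeR adjusted p = 0.977). Of the 5-FU libraries 3 of 5 lay above the highest vehicle library.

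Foxa1 was at 2.16, 1.31, 0, 2.88 and 0.669 CPM in vehicle, 1.00, 1.14, 0.574, 0.244 and 1.93 CPM in 5-FU, and 0.816, 1.42, 0.183, 0.854 and 4.17 CPM in gemcitabine. With the inhibitor it was at 1.51, 1.42, 1.79, 5.67 and 7.09 CPM in KCL-HO-1i, 0.829, 3.26, 2.38, 1.98 and 0.626 in KCL-HO-1i/5-FU, and 2.00, 9.05, 2.97, 1.36 and 1.70 in KCL-HO-1i/gemcitabine. The 3 groups given KCL-HO-1i had the 3 highest means (3.50, 3.42 and 1.81 CPM against 0.977 to 1.49), and 14 of 15 of their libraries lay above the mean log2 CPM of the group given the same treatment without it. That count rests partly on vehicle replicate 3, whose 0 reads lower the vehicle mean, and it was not repeated without this library. KCL-HO-1i replicates 1 to 3 lay below vehicle replicates 1 and 4. Averaged over the 3 backgrounds the log2 fold change was 1.13 ± 0.46 (edgeR adjusted p = 0.143, 0.0556 to 0.626 over the alternatives), a fold between 1.14 and 4.20 at the bounds of its 95% interval. Without KCL-HO-1i/gemcitabine replicate 2 it was 0.87 (edgeR adjusted p = 0.275), and without both libraries of the highest adipocyte score 0.79 (edgeR adjusted p = 0.36). The mean adipocyte score was 5.21 in KCL-HO-1i and 4.89 in KCL-HO-1i/gemcitabine against 2.00 to 2.69 in the other 4 groups. With the adipocyte score as a covariate the log2 fold change of Foxa1 was 0.87 (edgeR unadjusted p = 0.0439, adjusted p = 0.459). Without the covariate the unadjusted p in edgeR was 0.0208. Among the highest Foxa1 libraries, KCL-HO-1i/gemcitabine replicate 2 and KCL-HO-1i replicate 4 had adipocyte scores of 8.96 and 8.41. KCL-HO-1i replicate 5, at 7.09 CPM of Foxa1, had a score of 1.73. The part of adipocytes in these values was not tested.

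The prolactin receptor and the alveolar factor Elf5 varied less. Mean Prlr was highest in vehicle at 121 CPM ± 12.6 (SD, n = 5), followed by KCL-HO-1i at 112 ± 20.8, then KCL-HO-1i/5-FU at 109 ± 25.7, gemcitabine at 104 ± 28.9 and 5-FU at 103 ± 30.0. It was lowest in KCL-HO-1i/gemcitabine, at 90.3 CPM with a range of 49.6 to 112. The lowest libraries were KCL-HO-1i/gemcitabine replicate 3 (49.6 CPM) and 5-FU replicate 4 (54.1), whose luminal scores of 7.28 and 6.99 were among the 4 lowest. The others of these 4, KCL-HO-1i/gemcitabine replicate 2 (6.91) and KCL-HO-1i/5-FU replicate 3 (7.11), had 93.9 and 90.9 CPM of Prlr. For KCL-HO-1i/gemcitabine against vehicle the log2 fold change of Prlr was -0.43 ± 0.22 (edgeR adjusted p = 0.29). Mean Elf5 was 471 CPM ± 82.2 in vehicle and lowest in KCL-HO-1i/5-FU at 362 ± 87.6, a log2 fold change of -0.38 ± 0.25 (edgeR adjusted p = 0.435). In the other groups it was between 421 and 478 CPM.

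Gata3, Epcam and Cd24a differed least. Mean Gata3 ran from 210 CPM ± 57.5 in gemcitabine to 266 ± 62.5 in KCL-HO-1i/5-FU, Epcam from 1106 ± 304 in KCL-HO-1i/5-FU to 1279 ± 126 in 5-FU, and Cd24a from 638 ± 81.7 in KCL-HO-1i/gemcitabine to 682 ± 120 in gemcitabine (SD, n = 5). The precision was highest here. For KCL-HO-1i averaged over the 3 backgrounds, the 95% intervals allowed a fold of 0.919 to 1.26 for Gata3, 0.764 to 1.08 for Epcam and 0.856 to 1.19 for Cd24a, all including no change. A p that misses the threshold does not show equal levels, but larger folds than these lie outside the intervals. Epcam was lowest in replicate 2 of KCL-HO-1i/gemcitabine (590 CPM), replicate 3 of KCL-HO-1i/5-FU (620 CPM) and replicate 4 of KCL-HO-1i (740 CPM). KCL-HO-1i/5-FU held both the lowest and the highest Cd24a library, at 367 and 1094 CPM.

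Trp63 had a mean of 22.7 CPM ± 11.3 in vehicle and between 26.5 and 35.6 CPM in the treated groups. Libraries of a group differed by up to 7.74-fold, in gemcitabine, where they were at 67.9, 25.0, 42.1, 8.77 and 34.1 CPM. Its log2 fold change against vehicle was 0.65 ± 0.48 for gemcitabine (edgeR adjusted p = 0.941) and 0.61 ± 0.48 for KCL-HO-1i/5-FU (edgeR adjusted p = 0.521), with wide intervals that reached 3.10-fold and 3.02-fold at their upper bounds. The first was 0.28 without gemcitabine replicate 1 and 1.00 without vehicle replicate 3, and the second was 0.96 without the latter and 0.15 without replicate 3 of KCL-HO-1i/5-FU.

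Across the 30 libraries the clearest relations among members were within the luminal markers and between Epcam and Trp63. Of 36 member pairs, 3 passed an adjusted permutation p under 0.05 for Spearman's rho (Benjamini-Hochberg over the 36, two-sided), 2 positive and 1 negative, and all 3 also passed with Pearson's r and within groups, where group means were removed. Epcam and Trp63 were inversely related, with rho = -0.72 and r = -0.62 (permutation p = 3e-05 and 0.00015, adjusted p = 0.00108 and 0.00342), rho = -0.65 within groups, and r = -0.64 without the 2 libraries farthest from the median of Epcam. Gata3 and Epcam were positively related, with rho = 0.63 and r = 0.61 (permutation p = 0.00028 and 0.00045, adjusted p = 0.00504 and 0.0054), rho = 0.72 within groups and r = 0.69 without the 2 farthest libraries. For Elf5 and Cd24a rho was 0.54 and r 0.56 (permutation p = 0.00236 and 0.00117, adjusted p = 0.0283 and 0.0105), rho = 0.59 within groups and r = 0.52 without the 2 farthest libraries. Pgr and Foxa1 had rho = 0.47 and r = 0.62 (permutation p = 0.00857 and 0.00019, adjusted p = 0.0617 and 0.00342), and rho = 0.76 within groups (adjusted permutation p = 0.00036). Without the 2 libraries farthest from the median of Pgr r was 0.38, and both genes were at 0 reads in the same library. Without both libraries of the highest adipocyte score r was -0.71 for Epcam and Trp63, 0.57 for Gata3 and Epcam, 0.56 for Elf5 and Cd24a and 0.60 for Pgr and Foxa1. Esr1 and Pgr, a receptor and a well-known target of it, had rho = 0.14 (permutation p = 0.45, adjusted p = 0.54).

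**Figure D4:**
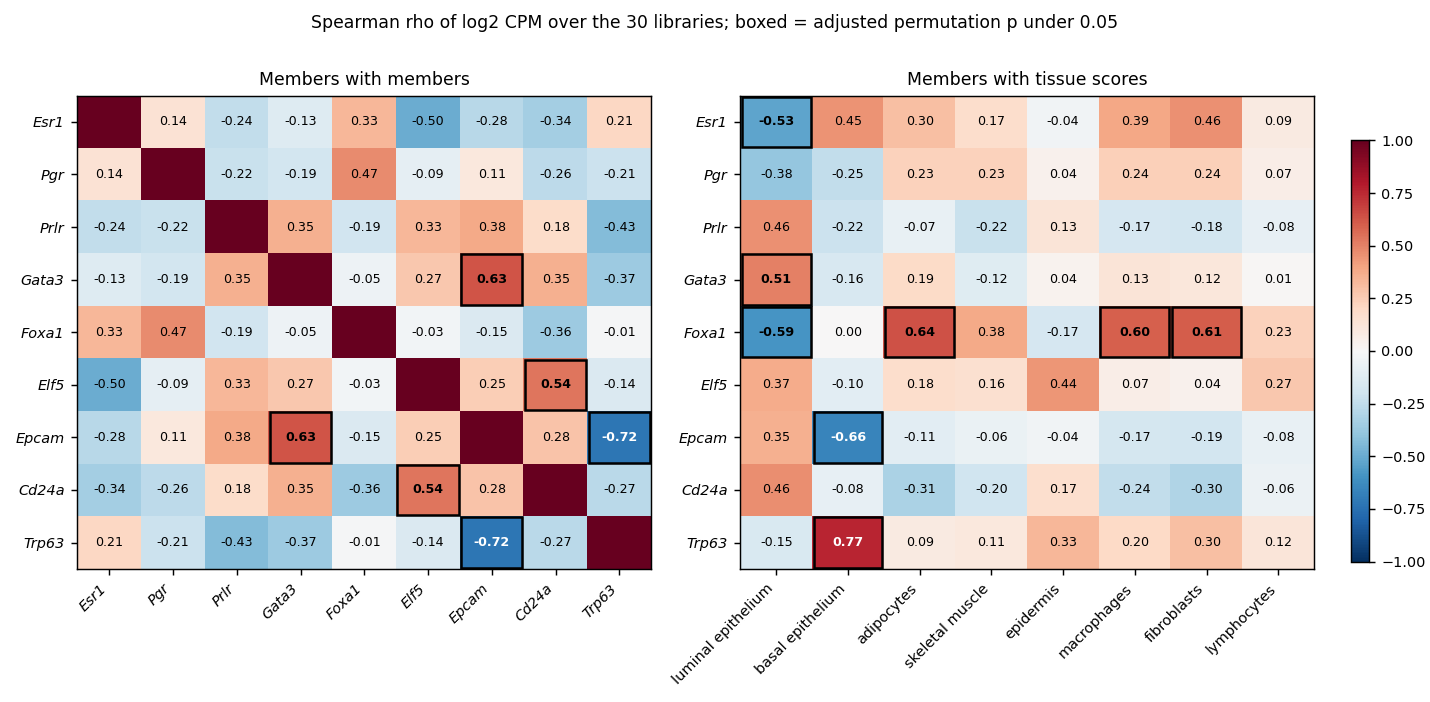
Spearman's rho of log2 CPM over 30 libraries, between members (left) and between members and 8 tissue scores (right); boxes mark an adjusted permutation p under 0.05. Of 36 member pairs 3 are boxed, with Epcam and Trp63 at -0.72, and of 72 relations with scores 8 are boxed, with Trp63 and the basal score highest at 0.77.

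Of the 72 relations between members and tissue scores, 8 passed the adjusted permutation p, 5 positive and 3 negative, and 7 of these also passed with Pearson's r. Trp63 followed the basal score, built from Krt5, Krt14 and 6 other genes, with rho = 0.77 and r = 0.75 (permutation p = 1e-05 for each, the least that 100000 permutations allow, adjusted p = 0.00072), rho = 0.77 within groups and r = 0.69 without the 2 libraries farthest from the median score. Epcam ran against it, with rho = -0.66 and r = -0.55 (permutation p = 0.00011 and 0.0018, adjusted p = 0.00396 and 0.0185), rho = -0.57 within groups and r = -0.54 without the 2 farthest libraries. The luminal score followed Gata3 (rho = 0.51, r = 0.52, permutation p = 0.00459 and 0.00392, adjusted p = 0.0413 and 0.0257, rho = 0.45 within groups with an adjusted permutation p of 0.0552, r = 0.45 without the 2 farthest libraries) and ran against Esr1 (rho = -0.53, r = -0.69, permutation p = 0.00356 and 7e-05, adjusted p = 0.0366 and 0.00126, rho = -0.63 within groups, r = -0.46 without the 2 farthest libraries). Within groups, Prlr, Elf5 and Cd24a also followed the luminal score, with rho = 0.51, 0.55 and 0.52 (adjusted permutation p = 0.0289, 0.0195 and 0.0262), and Pgr ran against it with rho = -0.56 (adjusted permutation p = 0.0195) and followed the fibroblast score with rho = 0.52 (adjusted permutation p = 0.0262). Without both libraries of the highest adipocyte score, r with the basal score was 0.74 for Trp63 and -0.60 for Epcam, and r with the luminal score was 0.47 for Gata3 and -0.56 for Esr1.

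Foxa1 stood apart from the luminal regulators Gata3 and Elf5, and shared part of its pattern with Esr1 and Pgr. It ran against the luminal score (rho = -0.59, r = -0.38, permutation p = 0.0008 and 0.0411, adjusted p = 0.0096 and 0.164, rho = -0.54 within groups, r = -0.52 without the 2 farthest libraries). It followed the scores of adipocytes (rho = 0.64, r = 0.65, permutation p = 0.00021 and 9e-05, adjusted p = 0.00504 and 0.0013, rho = 0.55 within groups, r = 0.52 without the 2 farthest libraries) and macrophages (rho = 0.60, r = 0.65, permutation p = 0.00051 and 7e-05, adjusted p = 0.00734 and 0.00126, rho = 0.54 within groups, r = 0.57 without the 2 farthest libraries). With fibroblasts rho was 0.61 and r 0.69 (permutation p = 0.00049 and 2e-05, adjusted p = 0.00734 and 0.00072, rho = 0.63 within groups, r = 0.49 without the 2 farthest libraries). Without both libraries of the highest adipocyte score r was -0.20 for the luminal score, 0.52 for adipocytes, 0.60 for macrophages and 0.62 for fibroblasts. These scores share libraries and the part of other cell types in the Foxa1 reads was not tested. Esr1 passed with Pearson's r but not with rho for fibroblasts (r = 0.57, rho = 0.46, adjusted permutation p = 0.0149 and 0.078). The same held for adipocytes (r = 0.46, rho = 0.30, adjusted permutation p = 0.0441 and 0.344) and macrophages (r = 0.47, rho = 0.39, adjusted permutation p = 0.0439 and 0.182). Without both libraries of the highest adipocyte score these r of Esr1 were 0.40, 0.14 and 0.36.

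**Figure D5:**
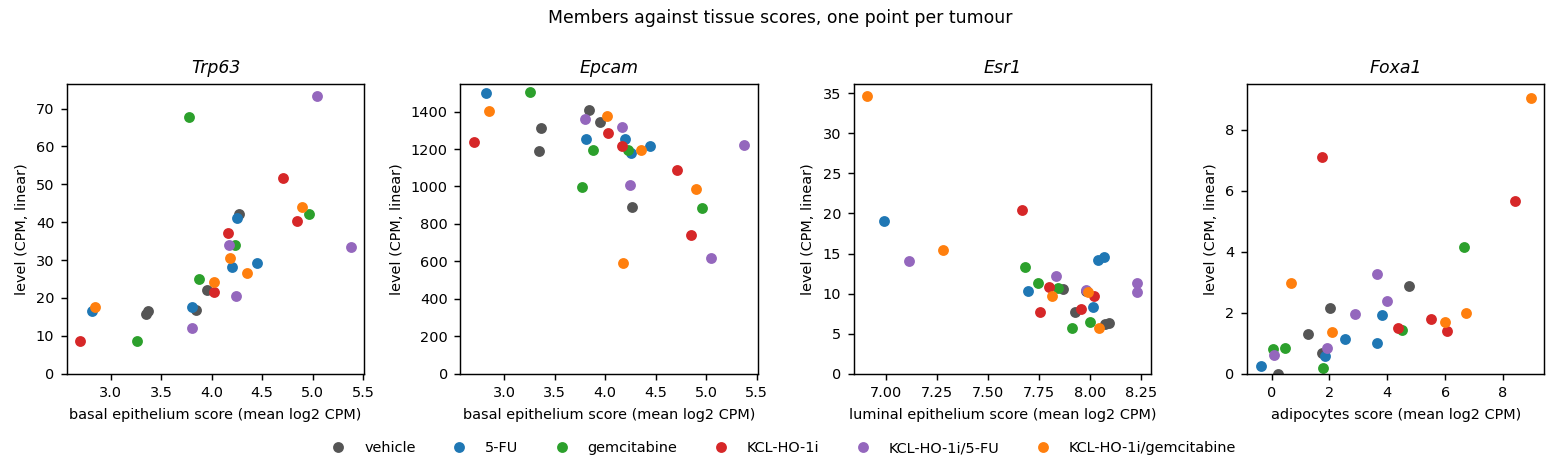
CPM (linear axis) of 4 members against a tissue score (mean log2 CPM of a marker list), 1 point per library, coloured by group. Trp63 climbs with the basal score (rho 0.77) while Epcam is lower (rho -0.66), Esr1 is highest at 34.7 CPM in the library of the lowest luminal score (6.91), and Foxa1 climbs with the adipocyte score (rho 0.64).

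The genes whose levels followed each member most closely over the 30 libraries, given as a description by Spearman's rho, differed between members. For Epcam they were St14 (0.89), Slc9a3r2 (0.86) and Trim21 (0.84), of which St14 encodes the epithelial protease matriptase. For Gata3 they were Irx2 (0.83), Fam177a (0.78) and Arrdc4 (0.78), for Elf5 the folate receptor gene Folr1 (0.87), Ttc39a (0.84) and Bicdl2 (0.81), and for Prlr Tmem63a (0.79), Yipf6 (0.74) and Ube4a (0.73). Trp63 was followed by Bmp7 (0.88), Bnc1 (0.87), which encodes a zinc finger factor of basal keratinocytes, and Slc2a10 (0.85). Esr1 was followed by the atypical cadherin Fat4 (0.82), the myosin light chain kinase Mylk (0.81) and Sdk2 (0.79). Foxa1 was followed by Prdm16 (0.81), known as a regulator of brown fat, Nat8l (0.78) and Acss3 (0.77). For Cd24a they were Mrpl49 (0.78), Wdr20 (0.78) and Gatad1 (0.78), and for Pgr, with few reads, Sfxn4 (0.68), Ust (0.67) and Serpinb8 (0.63).

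Other genes of the same programmes were counted by list. The shares of all tested genes given beside these counts are those of edgeR with all 30 libraries. For DESeq2, limma-voom and the edgeR fits with 1 library left out no such share is given, so their counts by list are not read as results about a list. Among genes of luminal structure (keratins, claudins, E-cadherin and related genes), 0 of 12 passed the adjusted threshold in any of the 13 comparisons with edgeR, while DESeq2 and limma-voom made 1 call each. At an unadjusted p, 3 of 12 were lower in KCL-HO-1i/gemcitabine against vehicle, where 19.8% of all tested genes passed in either direction, with a median log2 fold change of -0.30 against 0.02 over all tested genes. Cdh1, which encodes E-cadherin, was at -0.54 ± 0.16 (edgeR adjusted p = 0.0921) and the tight junction gene Cldn4 at -1.08 ± 0.42 (edgeR adjusted p = 0.145). For the KCL-HO-1i average Cdh1 was at -0.24 ± 0.09 and Spint2 at -0.25 ± 0.12, and against gemcitabine Cdh1 was at -0.46 ± 0.16. Krt7 was at 0.68 ± 0.26 in KCL-HO-1i/5-FU compared with KCL-HO-1i.

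Of the other luminal transcription factors, 0 of 12 passed the adjusted threshold in any of the 13 comparisons with edgeR, DESeq2 or limma-voom. At an unadjusted p under 0.05, 1 was higher and 2 were lower in KCL-HO-1i/5-FU against 5-FU, where 11.4% of all tested genes passed in either direction. In KCL-HO-1i/5-FU against vehicle 1 was higher and 1 lower (17.6% of genes), and in the 5-FU interaction 2 were lower (8.53%). In the gemcitabine interaction 1 was higher (1.34%), and at most 1 passed in each other comparison (2.66% to 23.0%). These counts of single genes are not read as a result about the list. Cebpb was higher in KCL-HO-1i/5-FU against vehicle, 5-FU and KCL-HO-1i (log2 fold changes of 0.34 to 0.44), and Spdef, which encodes an ETS factor of luminal and secretory cells, was at -1.76 ± 0.77 against vehicle. Runx1 was at -0.42 ± 0.20 in gemcitabine against vehicle, 0.48 ± 0.20 in KCL-HO-1i/gemcitabine against gemcitabine, and 0.61 ± 0.28 in that interaction. Msx2 was at 3.40 ± 1.22 in 5-FU against vehicle, -3.04 ± 1.20 in KCL-HO-1i/5-FU against 5-FU and -4.34 ± 1.68 in that interaction, but without 5-FU replicate 4 the first was -0.59 and the second 0.94. Tbx3 was at -2.93 ± 1.18 in the same interaction, with a mean of 3.585 CPM ± 5.153 (SD) in 5-FU, where the SD exceeded the mean.

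Of the 12 genes of the oestrogen and progesterone response, 9 were tested and 0 passed the adjusted threshold in any comparison with edgeR. DESeq2 made 6 calls, in 6 of the 13 comparisons, and limma-voom 1, and edgeR made at most 1 call in a comparison with 1 library left out, in 3 of the 13. The oestrogen target Greb1 and the progesterone target Tnfsf11 (RANKL) were too low to test, as was Calca. Myb, which encodes a transcription factor and oestrogen target, was lower at an unadjusted p in 5 comparisons, with log2 fold changes of -1.26 ± 0.36 in KCL-HO-1i/5-FU against vehicle, -1.79 ± 0.37 against 5-FU (edgeR adjusted p = 0.193) and -1.60 ± 0.36 against KCL-HO-1i. Mean Myb was 1.82 CPM ± 0.804 in KCL-HO-1i/5-FU and between 4.36 and 6.30 in the other 5 groups. For the average it was at -0.52 ± 0.20 and for the 5-FU interaction at -2.13 ± 0.51. The progesterone target Wnt4 was at 3.19 ± 1.18 in KCL-HO-1i/5-FU against vehicle, 2.32 ± 1.13 against 5-FU and 1.70 ± 0.65 for the average, but -0.70 without KCL-HO-1i/5-FU replicate 3 in the second. Cited1 was at -2.41 ± 0.89 in KCL-HO-1i/5-FU compared with KCL-HO-1i, with a mean of 4.05 CPM ± 5.43 (SD) in the latter, where the SD exceeded the mean. The coactivators Ncoa1 (-0.28 ± 0.14 in gemcitabine and -0.30 ± 0.14 in KCL-HO-1i/gemcitabine, both against vehicle) and Ncoa3 (-0.33 ± 0.16 in KCL-HO-1i/gemcitabine against gemcitabine) were the smallest of these values.

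Downstream of the prolactin receptor, 0 of 7 genes passed the adjusted threshold with edgeR. DESeq2 made 4 calls, in 3 of the 13 comparisons, and limma-voom 2, in 2, and edgeR made up to 2 in a comparison with 1 library left out, in 2 of the 13. Those with an unadjusted p were the feedback inhibitors Socs1 and Socs3, which many cytokines induce. Against vehicle, Socs3 was at 1.55 ± 0.41 in KCL-HO-1i/5-FU, with 1.16 ± 0.41 for KCL-HO-1i/gemcitabine, at 1.06 ± 0.41 in KCL-HO-1i/5-FU against 5-FU and at 0.86 ± 0.23 for the average (edgeR adjusted p = 0.0558). Socs1 was at 1.46 ± 0.50, 1.45 ± 0.50 and 0.93 ± 0.28 (edgeR adjusted p = 0.0662) in the first, second and last of these. The kinase Jak2 and the factors Stat5a and Stat5b, which carry the prolactin signal, had no unadjusted p under 0.05.

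The basal list had more genes with an unadjusted p than the others, all of them higher in each contrast except the gemcitabine interaction. For KCL-HO-1i/5-FU against vehicle 7 of 12 were higher, with a median log2 fold change of 1.20 (0.01 over all genes), for KCL-HO-1i/gemcitabine 6 of 12 (1.06, against 0.02 over all genes) and for the average 6 of 12 (0.73), where 17.6%, 19.8% and 23.0% of all tested genes passed in either direction. The mean fibroblast score was 5.16 in vehicle, 6.55 in 5-FU, 6.08 in gemcitabine and 6.76 to 7.47 in the groups given KCL-HO-1i, and its part in these values was not tested. No basal gene passed the adjusted threshold there with edgeR. DESeq2 made 16 calls for this list, in 5 of the 13 comparisons, and limma-voom 0, with no share of all genes beside them. With 1 library left out, edgeR made up to 4 in a comparison, also with no share of all genes beside them. In the test of any difference among the groups Acta2 and Cnn1 passed (edgeR adjusted p = 0.0424 and 0.0328). Both encode smooth muscle proteins of myoepithelial cells, which vessels and myofibroblasts also make. KCL-HO-1i/gemcitabine replicate 3 had 658 CPM of Acta2 and 112 CPM of Cnn1 against at most 112 and 10.8 CPM elsewhere, and without it the adjusted p-values were 0.298 and 0.252 in edgeR. Leaving out each of the 30 libraries in turn took the adjusted p of Acta2 to 0.05 or more in 19 cases and that of Cnn1 in 10, with adjusted p-values from 5.44e-05 to 0.762 and from 1.24e-05 to 0.762 over the alternatives. Cnn1 was at 6.14 ± 1.43 and Acta2 at 3.64 ± 0.83 in KCL-HO-1i/gemcitabine against vehicle, at 5.35 ± 1.36 and 3.10 ± 0.81 against gemcitabine, and at 4.00 ± 1.26 and 2.78 ± 0.80 against KCL-HO-1i. For the average Cnn1 was at 2.73 ± 0.72 (edgeR adjusted p = 0.0532) and Mylk at 1.21 ± 0.34 (edgeR adjusted p = 0.0562), and Acta2 was at 2.24 ± 1.08 in the gemcitabine interaction.

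Other basal genes were named by the same rule. Krt14 was at 1.60 ± 0.63 and Mylk at 2.16 ± 0.60 in KCL-HO-1i/5-FU against vehicle (edgeR adjusted p = 0.191 and 0.119). Against 5-FU they were at 1.75 ± 0.63 and 1.39 ± 0.59 (edgeR adjusted p = 0.34 and 0.378). Against KCL-HO-1i, Mylk was at 1.74 ± 0.59 and the integrin gene Itgb4 at 1.05 ± 0.36. In the 5-FU interaction Itgb4 was at 1.28 ± 0.51 and Krt17 at 2.92 ± 1.32 (edgeR adjusted p = 0.502 and 0.551). Libraries of KCL-HO-1i/5-FU differed widely, with means of 276.5 CPM ± 352.2 (SD) for Krt14, 79.73 ± 131.5 for Krt17 and 46.78 ± 45.04 for Mylk. For Krt14 and Krt17 the SD exceeded the mean, so a rise shared by the libraries of that group was not shown. P-cadherin (Cdh3) was at 1.15 ± 0.55 in gemcitabine and 1.22 ± 0.55 in KCL-HO-1i against vehicle and at -1.59 ± 0.77 in the gemcitabine interaction, and Snai2 was at 1.14 ± 0.52 in KCL-HO-1i. Trp63 itself was at 0.19 ± 0.27 for the average (edgeR adjusted p = 0.727).

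Of the 10 progenitor genes 0 passed the adjusted threshold in any comparison with edgeR. DESeq2 made 3 calls, in 3 of the 13 comparisons, and limma-voom 1, and edgeR made at most 1 call in a comparison with 1 library left out, in 1 of the 13. Procr, a marker of mammary stem-like cells that endothelium also makes, was at 1.29 ± 0.56 for KCL-HO-1i against vehicle, with 1.58 ± 0.56 for KCL-HO-1i/5-FU, 1.48 ± 0.56 for KCL-HO-1i/gemcitabine and 1.01 ± 0.32 for the average (edgeR adjusted p = 0.0731). Sox9 was at 0.87 ± 0.35, 0.96 ± 0.35 and 1.13 ± 0.35 in KCL-HO-1i/5-FU against vehicle, 5-FU and KCL-HO-1i, and at 1.22 ± 0.49 in the 5-FU interaction. Sox10 was at -0.53 ± 0.20 in KCL-HO-1i/gemcitabine against vehicle, and Ly6a at 0.88 ± 0.38 for the average. The luminal progenitor markers Kit and Aldh1a3 had no unadjusted p under 0.05.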

How the data were processed

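RNA from 30 mammary tumour samples (6 groups of 5) was sequenced with a strand-specific kit. Per the labels and the study's methods, the authors checked reads with FastQC 0.11.9 and used STAR 2.7.9a, Salmon 1.9.0, tximport and DESeq2 (version not given in the sources used here) on mm10. The annotation release was not given in the sources used here. The table deposited by the authors holds estimated counts per gene, not normalised, of which 38% were not whole and all were rounded here. Methods of the study speak of TPM, but the column totals differ between libraries and lie between 10067698 and 13622395.

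Genes were filtered with filterByExpr (minimum count 10), which kept 13663 genes and left out 8178 with 0.0564% of counts. Counts were scaled by TMM and fitted in edgeR 4.0.16 (R 4.3.3) with 1 mean per group and the robust quasi-likelihood test, Benjamini-Hochberg adjustment over all tested genes and a threshold of 0.05. The standard error was derived from the log2 fold change and its F statistic. The scripts were tested on simulated data. Correlations used log2 CPM with 100000 permutations. Alternatives were RLE scaling, DESeq2 1.42.0, limma-voom (limma 3.58.1), other filters, a replicate block, the prefix of the library codes as a term, tissue scores as covariates, the compared groups alone, and leaving out each library. Named pathway genes were, per list and comparison, up to 2 of lowest unadjusted p under 0.05, and for likeness the 3 genes of highest Spearman's rho. Promoter windows held only the 250 bases before each start site, and the bases after it were left out once a first search had been run. Acta2 and Cnn1 in the test of any difference, and the libraries described as standing apart, were chosen after their values were seen. The members and lists were chosen with earlier results of these data known.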

Additional observations from a re-analysis of the deposited data

Results flagged for a closer look

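Of 54 groups of 5 values (9 genes in 6 groups), 4 held a library whose gap to its nearest neighbour exceeded Dixon's critical value of 0.71 of the group's range, where chance flags about 1 in 20 groups. Esr1 was at 20.4 CPM in KCL-HO-1i replicate 4, with the next library of the group at 10.9 CPM. Foxa1 was at 9.05 CPM in KCL-HO-1i/gemcitabine replicate 2, with the next at 2.97 CPM. These are the libraries of the highest adipocyte scores, 8.41 and 8.96. Epcam was at 1497 CPM in 5-FU replicate 5, with the next at 1253 CPM. Trp63 was at 42.3 CPM in vehicle replicate 3, with the next at 22.1 CPM, in the library where Pgr and Foxa1 were at 0 reads.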

How the results depend on the processing

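No member passed the adjusted threshold in the main setting or in any of 41 others (4870 tests with the main setting included, lowest adjusted p = 0.0556, Foxa1 in the KCL-HO-1i average without gemcitabine replicate 5, edgeR). Of 4395 alternative values of the 108 member log2 fold changes, 12 turned in sign where the value exceeded its standard error, mostly with the prefix of the library codes as a term; the cause was not tested. With that term, against vehicle, Esr1 was at -1.37 (5-FU), -1.46 (KCL-HO-1i), -1.10 (its 5-FU combination) and -0.083 (its gemcitabine combination), Foxa1 at -1.53 (KCL-HO-1i) and -0.34 (the gemcitabine combination), Elf5 at 0.049, Spdef at 0.18, Cebpb at -0.063 and Wnt4 at -0.22 for KCL-HO-1i/5-FU, Snai2 at -0.62 for KCL-HO-1i and Runx1 at 0.16 for gemcitabine. In the 5-FU interaction Esr1 was at 1.73 and Gata3 at -0.27, in the gemcitabine interaction Runx1 at -0.46, for the average Cdh1 at 0.10, Socs1 at -0.024 and Mylk at -0.25, and Sox9 at -0.14 in KCL-HO-1i/5-FU against 5-FU. Of the vehicle libraries only 1 shares a prefix with another group, so with that term the comparisons against vehicle rest on it and are poorly determined. The standard error grew from 0.67 to 2.46 for Pgr in gemcitabine and from 0.36 to 0.57 for Esr1 in KCL-HO-1i/gemcitabine, both against vehicle. With limma-voom, Esr1 was at -0.049 in KCL-HO-1i/gemcitabine against gemcitabine, Msx2 at -0.39 in 5-FU against vehicle, 0.78 in KCL-HO-1i/5-FU against 5-FU and 1.03 in that interaction, and Wnt4 at -0.14 in KCL-HO-1i/5-FU against 5-FU. Esr1 in KCL-HO-1i/gemcitabine against KCL-HO-1i was at -0.035 with the luminal score as a covariate, and Ly6a for the average at -0.059 with the adipocyte score. Leaving out 1 library gave -0.16 to 0.72 for Esr1 in KCL-HO-1i/gemcitabine against KCL-HO-1i, -0.59 to 3.70 for Msx2 in 5-FU against vehicle, -3.44 to 0.94 for Msx2 and -0.70 to 2.64 for Wnt4 in KCL-HO-1i/5-FU against 5-FU, and 2 to 5 correlated member pairs, with 5 without vehicle replicate 2 or 5, 5-FU replicate 3 or KCL-HO-1i/5-FU replicate 5. Unadjusted p-values reached 0.05 without 3 single libraries for Pgr in gemcitabine (gemcitabine replicate 3, vehicle replicates 4 and 5), 4 in KCL-HO-1i/5-FU against vehicle (vehicle replicates 4 and 5, KCL-HO-1i/5-FU replicates 1 and 5) and 5 against KCL-HO-1i, 3 for Esr1 (KCL-HO-1i/gemcitabine replicate 2, vehicle replicates 3 and 5) and 1 for Foxa1. For basal list genes DESeq2 made 16 calls, in 5 of the 13 comparisons, and limma-voom 0, with no share of all genes given for either tool.

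The replicate numbers did not pair the libraries: residuals of same-numbered libraries had a mean correlation of 0.00284 (75 pairs, -0.584 to 0.480), and 8 of 30 libraries correlated best with their own number. With a replicate block, the log2 fold change of Pgr was -1.59 in gemcitabine and -1.41 in KCL-HO-1i/5-FU against vehicle and -1.20 for the 5-FU combination against KCL-HO-1i, that of Esr1 0.84 and that of Foxa1 1.23 (edgeR adjusted p = 0.965, 0.332, 0.415, 0.228 and 0.172), and Acta2 and Cnn1 no longer passed in the test of any difference (edgeR adjusted p = 0.349 and 0.346). Depth limits Pgr and Foxa1, with medians of 17.5 and 19 reads.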
